A study of Mus musculus with 3 samples.

Results

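Immediate early genes were followed here in single cells of the mouse iridocorneal angle and limbus, the ring of tissue at the front of the eye that holds the outflow pathway of the aqueous humor. The set was a fixed list of 10 genes, *Fos*, *Fosb*, *Jun*, *Junb*, *Egr1*, *Ier2*, *Atf3*, *Zfp36*, *Btg2* and *Dusp1*, and all 10 were found among the 31053 genes counted. Genotypes were compared in 3 droplet libraries, with 2 control libraries from *Angpt1* flox/flox mice and 1 library from *Angpt1* flox/flox;Wnt1Cre+ mice, called *Angpt1*ΔNC. The floxed allele was therefore shared by all mice and the Cre transgene was carried by the *Angpt1*ΔNC mice alone, so effects of the deletion and of the transgene locus cannot be told apart. Wnt1-Cre acts in cells derived from the neural crest, which include the stroma and mural cells of this tissue but not its endothelium or surface epithelium. Mice were 6 weeks old and of a mixed albino background, and each library pooled the eyes of 2 to 3 animals of both sexes according to the methods. Libraries are thus the replicates, and *Angpt1*ΔNC has 1.

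Immediate early genes are transcribed within minutes of a stimulus from factors that are already present in the cell, without new protein synthesis. Kinase cascades that end on serum response factor with its partners, and on CREB, are the classical inputs. *Fos*, *Fosb*, *Jun* and *Junb* encode subunits of the dimeric transcription factor AP-1, *Egr1* encodes a zinc finger transcription factor and *Atf3* a stress-induced factor of the ATF family. *Zfp36* encodes tristetraprolin, which promotes the decay of mRNAs with AU-rich elements, *Btg2* encodes an antiproliferative protein that acts through deadenylation, and *Dusp1* encodes a phosphatase that switches off MAP kinases. These genes are also known to respond to warm enzymatic dissociation. All 3 libraries went through digestion with collagenase and then trypsin, no undissociated tissue was analysed here, and the part of the digestion in any level below was not tested.

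The promoters of *Fos*, *Fosb* and *Atf3*, 3 members called lower in the mural cells of *Angpt1*ΔNC, are printed first, since the shared inputs of the set act on such sequence. Those of *Junb* and *Dusp1* follow. In the mural class *Junb* lay below both controls without being called, and *Dusp1* lay above both. A RefSeq promoter window (250 bases before to 50 after the transcription start, build GRCm38.p6) was found for 8 of the 10 members, all but *Egr1* and *Ier2*. Capitals mark TGACG on either strand, the core of the site bound by CREB and ATF factors, which on the opposite strand reads CGTCA. The windows lie at chr12:85473640-85473939 on the plus strand for *Fos*, and on the minus strand at chr7:19309996-19310295 for *Fosb*, chr1:191183284-191183583 for *Atf3*, chr8:84978699-84978998 for *Junb* and chr17:26508423-26508722 for *Dusp1*.
Fos: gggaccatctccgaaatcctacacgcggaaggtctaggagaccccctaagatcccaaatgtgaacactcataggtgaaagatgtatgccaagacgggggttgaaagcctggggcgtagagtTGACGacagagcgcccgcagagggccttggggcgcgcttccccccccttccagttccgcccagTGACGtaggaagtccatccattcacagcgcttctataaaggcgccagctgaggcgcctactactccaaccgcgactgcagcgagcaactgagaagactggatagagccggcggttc
Fosb: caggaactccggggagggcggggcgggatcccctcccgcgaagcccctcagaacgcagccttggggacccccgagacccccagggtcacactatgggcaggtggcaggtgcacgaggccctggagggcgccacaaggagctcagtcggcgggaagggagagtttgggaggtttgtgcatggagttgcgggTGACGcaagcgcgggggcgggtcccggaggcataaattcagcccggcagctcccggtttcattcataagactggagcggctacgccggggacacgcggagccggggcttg
Atf3: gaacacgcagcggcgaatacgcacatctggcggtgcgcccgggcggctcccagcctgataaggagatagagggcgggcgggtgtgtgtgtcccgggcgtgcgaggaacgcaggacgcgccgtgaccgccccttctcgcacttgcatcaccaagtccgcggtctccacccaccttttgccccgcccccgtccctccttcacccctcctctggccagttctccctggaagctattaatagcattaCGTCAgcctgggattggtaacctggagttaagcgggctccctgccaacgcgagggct
Junb: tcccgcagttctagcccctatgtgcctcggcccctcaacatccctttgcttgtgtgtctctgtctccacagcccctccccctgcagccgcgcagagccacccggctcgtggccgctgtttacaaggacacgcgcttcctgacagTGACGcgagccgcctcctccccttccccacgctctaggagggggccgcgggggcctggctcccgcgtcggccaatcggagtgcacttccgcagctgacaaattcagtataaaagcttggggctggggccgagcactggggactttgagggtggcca
Dusp1: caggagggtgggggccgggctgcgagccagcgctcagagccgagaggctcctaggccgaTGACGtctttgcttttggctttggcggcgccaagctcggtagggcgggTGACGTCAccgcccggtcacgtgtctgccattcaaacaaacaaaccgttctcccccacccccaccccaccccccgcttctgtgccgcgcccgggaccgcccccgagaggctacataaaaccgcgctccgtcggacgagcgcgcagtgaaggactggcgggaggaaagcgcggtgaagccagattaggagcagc

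TGACG was present in 6 of the 8 windows (*Fos*, *Fosb*, *Junb*, *Atf3*, *Btg2* and *Dusp1*), and in 20.8% of all 32851 mouse promoter windows of this length. *Fos* held it at 2 places, the nearer one starting 66 bases before the transcription start, and *Dusp1* at 3, of which a pair overlap in the full palindrome TGACGTCA that starts 143 bases before the start. The palindrome was found in *Btg2* and *Dusp1* and in 1.79% of all windows. A CArG box, the site of serum response factor, was matched in the window of *Zfp36* alone among the 8 and in 1.63% of all windows, and the AP-1 site TGAGTCA in none of the 8 and in 5.20%. These matches describe letters in the window and not binding.

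The 3 libraries held 9076, 10160 and 6772 kept cells (control replicate 1, control replicate 2 and *Angpt1*ΔNC, the order used throughout), with 35 deposited cluster labels. Median depth was 6329.5, 6393.5 and 7444 UMIs per cell, and the median mitochondrial share was 3.40%, 4.26% and 4.61%. The targeted gene *Angpt1* was at 37.8, 39.3 and 0.391 CPM, as the labels say. Against the stated mixed sex of the pools, *Xist* was at 0.0390, 0.0249 and 652 CPM, so the controls held next to no female cells. The genotype tests within each class were also run in cells typed male. The tests between classes, the fits of single labels and the counts over labels were not. Libraries shared 13 to 25 kept barcodes, of which 1 per pair of libraries carried the same label. The 4 classes below were compared between genotypes: stromal (labels TM1 to TM11), endothelial (SC, LEC and EC2 to EC4), epithelial (clusters 4 and 5) and mural (clusters 19, 20 and 21). The paper names clusters 19, 20 and 21 smooth muscle, pericytes and vascular smooth muscle. Mural is the name used here for the 3 together, and whether the muscle of cluster 19 belongs to vessels was not tested. Each class was highest of the 4 in its own markers. The sums were 437, 401 and 338 UMIs per 10000 for 7 epithelial markers in epithelial cells, 93.6, 96.6 and 95.4 for 7 endothelial markers in endothelial cells, 215, 213 and 150 for 8 mural markers in mural cells and 225, 248 and 355 for 7 stromal markers in stromal cells. Mural markers were thus lower and stromal markers higher in *Angpt1*ΔNC.

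Together the 10 members gave 410439, 379603 and 237985 UMIs, or 0.533%, 0.472% and 0.358% of all UMIs of the kept cells. As a mean over cells, their summed level was 62.1 and 53.0 UMIs per 10000 UMIs of a cell in the controls and 42.6 in *Angpt1*ΔNC. The controls thus differed by less than either did from *Angpt1*ΔNC. Of the 4 classes, mural cells stood highest in the controls, at 105, 98.0 and 57.0, followed by endothelial cells at 73.4, 55.3 and 68.5, which were highest in *Angpt1*ΔNC. Stromal cells had 60.5, 50.8 and 41.3, and epithelial cells 40.9, 35.2 and 23.5. The endothelial class was the one in which *Angpt1*ΔNC fell between the controls. The level was skewed, since the median cell of control replicate 1 had 36.6 UMIs per 10000 and the upper 5% of its cells had over 194.

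Between labels the summed level differed far more than between libraries. Label TM6, a stromal group, was highest with 345 and 259 UMIs per 10000 in the controls and 158 in *Angpt1*ΔNC. The mural cluster 19 came next (153, 134 and 81.5), followed by mural cluster 21 (108, 121 and 61.8), TM10 (103, 116 and 63.1) and cluster 24 (119, 81.5 and 93.3), in which 10 immune markers summed to 304, 312 and 261. At the other end stood TM3 (19, 16.9 and 13.7), cluster 8 (21.8, 19.3 and 18.6) and cluster 1 (15.0, 13.7 and 55.4, the last from 17 cells). Among the 32 labels with at least 20 cells in every library, the highest mean of the controls was 16.8 times the lowest. These levels are given without a test, because the labels were made from expression and 8 of the 10 members, all but *Junb* and *Ier2*, are among the 3467 genes of the deposited integrated table.

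**Figure D1:**
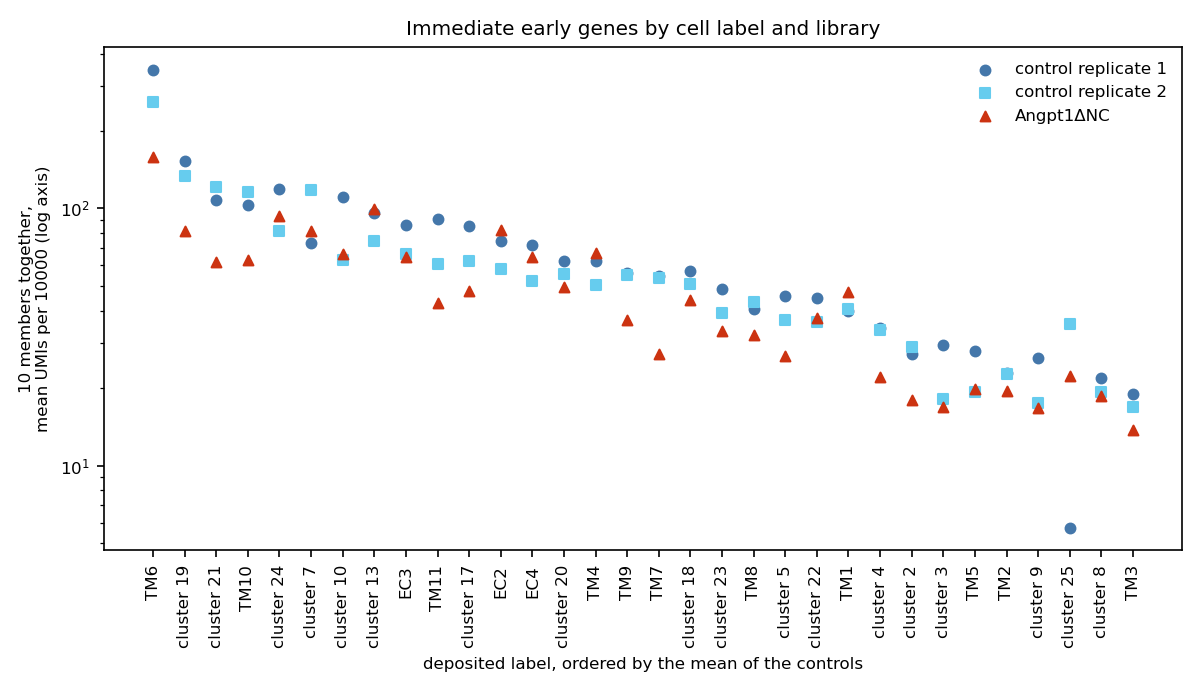
Summed level of the 10 immediate early genes in each deposited label with at least 20 cells per library, as mean UMIs per 10000 UMIs of a cell on a log axis, with 1 point per library. TM6 lies above every other label in all 3 libraries, and in TM6, cluster 19, cluster 21 and TM10 the *Angpt1*ΔNC point lies below both controls.

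The AP-1 subunits shared TM6 as their highest label and differed in the labels below it. *Fos* averaged 9.96, 7.0 and 4.53 UMIs per 10000 over all kept cells. It was highest in TM6 (113, 74.1 and 45.8), in mural cluster 19 (51.3, 42.2 and 17.8) and in cluster 13 (30.3, 19.3 and 27.1), a cluster rich in stromal markers. It was lowest in the controls in LEC (0.429, 0 and 29.2, from 3, 1 and 12 cells), TM3 (0.604, 0.393 and 0.272) and TM2 (0.876, 0.758 and 0.822). TM3 and TM2 are stromal labels like TM6, so *Fos* spanned nearly its whole range within the stroma, and over the 32 labels its highest control mean was 188 times its lowest. *Fosb*, its closest relative in the set, averaged 6.74, 7.09 and 5.14 and followed the stromal labels more closely. Its leading labels were TM6 (31.0, 35.4 and 18.2), TM11 (20.2, 25.0 and 8.74) and TM10 (18.2, 18.7 and 13.2), and its lowest LEC (0, 0 and 5.03), cluster 3 (0.581, 0.360 and 0.962) and cluster 25 (0, 1.07 and 1.34).

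*Jun* averaged 6.76, 5.21 and 4.55 UMIs per 10000. Below its maximum in TM6 (51.5, 31.3 and 28) came the epithelial cluster 4 (15.5, 15.1 and 8.59) and cluster 10 (15.2, 13.1 and 9.10), in which 4 glial markers summed to 62.1, 66.6 and 92.9. The 3 lowest labels for *Jun* all carried immune markers, with cluster 22 at 1.21, 0.904 and 0.874, cluster 23 at 2.08, 1.33 and 1.79 and cluster 25 at 0.250, 3.32 and 0.952. *Junb* behaved otherwise in immune cells. It averaged 17.6, 16.1 and 11.7, and after TM6 (75.8, 60.2 and 25.5) its highest label was the immune cluster 24 (47.2, 36.3 and 35.8), then mural cluster 21 (40.3, 40.9 and 23.9). It was lowest in cluster 1 (0.417, 0.617 and 2.32), TM5 (2.47, 1.29 and 1.92) and TM2 (3.02, 2.94 and 1.93).

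*Egr1* averaged 2.43, 2.42 and 2.24 UMIs per 10000, with the 3 libraries close together. TM6 (14.7, 14.6 and 10.5), mural cluster 19 (10.8, 11.3 and 9.38) and the ciliary marker-rich cluster 7 (5.61, 7.10 and 8.84) led, and the epithelial marker-rich clusters 4 (0.294, 0.483 and 0.393), 2 (0.395, 0.441 and 0.256) and 3 (0.717, 0.123 and 0.285) were lowest. *Atf3* averaged 6.33, 5.10 and 4.17 and had a different leader, cluster 7 (21.9, 30.1 and 24.1), ahead of mural cluster 19 (22.9, 20.4 and 17.7) and cluster 10 (20.6, 15.5 and 13.5). The control ranges of these labels touch or overlap, so their order is not settled. *Atf3* was lowest in cluster 22 (0.909, 0.272 and 0.258), cluster 1 (0.717, 1.10 and 6.36) and cluster 4 (1.29, 1.01 and 1.5). *Ier2* averaged 4.13, 3.29 and 2.86, with mural cluster 21 (13.5, 12.6 and 8.40), TM6 (14.4, 8.39 and 6.53) and immune cluster 24 (10.3, 5.37 and 3.80) on top. The pigment marker-rich clusters 8 (0.396, 0.310 and 0.167) and 9 (0.598, 0.419 and 0.232), with cluster 1 (0.0487, 0.0682 and 0.589), were its lowest.

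The remaining members act on mRNA decay or on kinases. *Zfp36* averaged 2.29, 2.36 and 2.35 UMIs per 10000, the least spread of the set between libraries. Immune cluster 24 was highest (14.0, 12.2 and 15.3), then TM6 (9.89, 8.78 and 6.29) and the blood endothelial label EC2 (6.97, 5.48 and 11.1). The control ranges of these 3 labels are separate. *Zfp36* was lowest in LEC (0, 0 and 4.80), cluster 1 (0.256, 0.291 and 0.849) and TM5 (0.365, 0.239 and 0.243). *Btg2* averaged 1.88, 1.41 and 1.37 and was highest in TM6 (10.6, 5.81 and 3.48), immune cluster 22 (6.25, 5.05 and 4.91) and cluster 13 (4.81, 3.76 and 3.26). It was lowest in cluster 8 (0.120, 0.0899 and 0.0698), cluster 1 (0.197, 0.110 and 0.794) and cluster 9 (0.277, 0.159 and 0.0906). *Dusp1* averaged 3.96, 3.09 and 3.64, and its highest labels were immune cluster 24 (14.4, 8.87 and 12.4) and the blood endothelial labels EC3 (9.99, 9.02 and 10.3) and EC4 (9.82, 8.03 and 9.14). The 3 overlap between the controls. The lowest were cluster 8 (0.459, 0.204 and 0.156), cluster 9 (0.615, 0.257 and 0.146) and cluster 1 (0.456, 0.450 and 0.797).

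**Figure D2:**
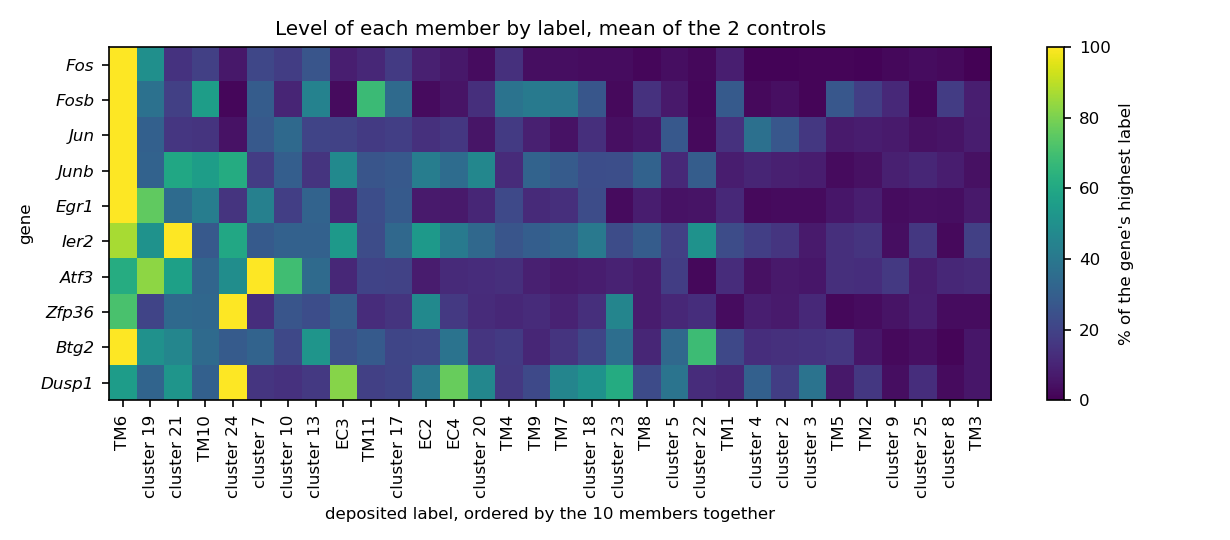
Mean control level of each member (rows) in each deposited label (columns), as a percentage of that gene's highest label. TM6 is the highest label for *Fos*, *Fosb*, *Jun*, *Junb*, *Egr1* and *Btg2*, while *Zfp36* and *Dusp1* peak in immune cluster 24, *Atf3* in cluster 7 and *Ier2* in mural cluster 21.

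TM6 was thus the leading label of 6 members and among the 4 highest for *Atf3*, *Ier2* and *Zfp36*. For *Dusp1* it came in place 5, at 7.95, 4.92 and 4.42 UMIs per 10000. Most labels in between could not be ordered, since with labels ranked by their control mean the ranges of the 2 controls were separate for 3 to 9 of the 34 neighbouring pairs, depending on the member (4 for *Fos*, 9 for *Fosb* and *Junb*).

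TM6 was small, with 112, 91 and 50 cells, or 4.00%, 2.74% and 2.57% of the stromal cells. Its median cell had 240, 185 and 73.7 UMIs of the 10 members per 10000, against 34.0, 31.9 and 22 in the other stromal cells. The label did not take in every stromal cell with a high level, as 164, 167 and 452 other stromal cells (6.09%, 5.17% and 23.8%) lay above its lower quartile, which was itself far lower in *Angpt1*ΔNC (120, 114 and 42.5 UMIs per 10000). TM6 cells were shallower, with medians of 3839, 3988 and 4576.5 UMIs against 6001, 6455 and 7565.5, and their mitochondrial share was close to that of the other stromal cells (3.68% against 3.39%, 4.57% against 4.37%, and 4.72% against 4.71%). In genes outside the lists used here, the stromal label nearest to TM6 was TM9 in every library, with a Pearson correlation of log2 levels over genes of 0.937, 0.943 and 0.921. The summed level of the members in TM9 was 55.8, 54.9 and 36.8.

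Ranked by their lowest fold over the mean of the other stromal labels in any library, 3 of the top 10 genes of TM6 and 4 of the top 30 were members (*Fos*, *Jun*, *Zfp36* and *Egr1*). *Fos* came first at 15.9, 14.5 and 8.57 times. The stress genes *Hspa1a* (4.49, 6.56 and 5.97 times) and *Hspa1b* (4.21, 4.86 and 4.98 times), which encode inducible HSP70, stood in places 13 and 14 of the 1983 genes ranked, and 5 other early response genes, *Ier5l*, *Klf2*, *Socs3*, *Gadd45b* and *Zfp36l2*, were in the top 30. As TM6 was drawn from the expression of these cells, these folds are a description. *Hspa1a* and *Hspa1b* were thus high in TM6 beside the members, and their part in the label was not tested.

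Within a label, cells that were high in one member tended to be high in another. Over labels with at least 100 cells, the median Pearson correlation of the 45 pairs of members across cells was 0.199 in control replicate 1 (24 labels), 0.167 in control replicate 2 (27 labels) and 0.112 in *Angpt1*ΔNC (20 labels), on ln(1 + UMIs per 10000). The cells of a label share a library, and counts are sparse, so that thinning each cell to 1000 UMIs gave 0.108, 0.0793 and 0.0519. Mural cluster 19 was the most coordinated label, with medians of 0.511 and 0.497 in the controls, and TM4 (0.357, 0.349 and 0.434) and TM1 (0.407, 0.357 and 0.363) were also high in every library. In TM8, TM3 and TM2 the median stayed under 0.09 in every library. *Fos* and *Egr1* were the closest pair, at a median of 0.347 over 71 labels and libraries and positive in 70 of them. *Fosb* and *Ier2* were the least close, at 0.0499 and positive in 50, with *Atf3* and *Dusp1* at 0.0509. The summed level of the members had a median correlation with the mitochondrial share of a cell of -0.0045, 0.00087 and 0.064, but labels went both ways, from -0.378 to 0.344 in control replicate 1, from -0.245 to 0.162 in control replicate 2 and from -0.0981 to 0.366 in *Angpt1*ΔNC. With the log of depth the medians were 0.023, 0.029 and -0.034. With the summed level of 9 stress genes of the heat shock family the median correlation was 0.297, 0.235 and 0.157, and the part of those genes in the members' levels was not tested.

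**Figure D3:**
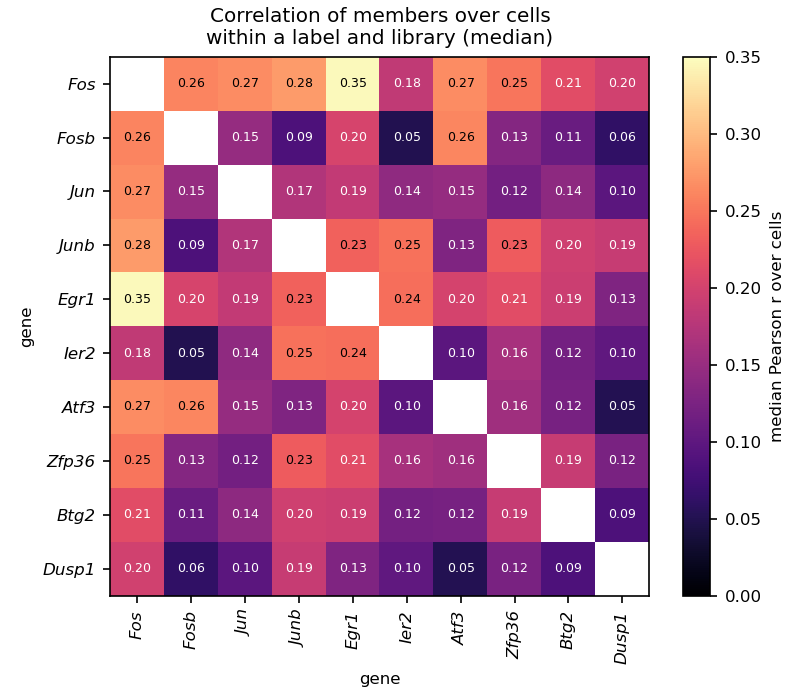
Median Pearson correlation of each pair of members over the cells of 1 label and library, across 71 labels and libraries of at least 100 cells, on ln(1 + UMIs per 10000). *Fos* with *Egr1* is the highest pair at 0.35, and *Fosb* with *Ier2* and *Atf3* with *Dusp1* are the lowest at 0.05.

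With every cell thinned to 1000 UMIs, at least 1 UMI of *Fos* was found in 22.3% (exact 95% confidence interval, CI, 21.5 to 23.2), 17.7% (CI 17.0 to 18.5) and 12.8% (CI 12 to 13.6) of kept cells. Without thinning these shares were 51.1%, 43.0% and 35.5%. For *Egr1* the thinned shares were 15.7%, 14.7% and 14.5%, with intervals that overlap. In TM6 *Fos* was found in 76.8%, 71.4% and 54.0% of thinned cells, and in TM3 in 3.24%, 2.11% and 3.17%. A cell with no UMI of any member was rare before thinning (1.53%, 1.45% and 1.24%). No label is known to lack these genes, so free RNA in the droplets could not be read from a negative cell type, and the intervals cover counting error only.

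Genotypes were compared on UMIs summed per class and library with edgeR, over all genes tested and with Benjamini-Hochberg adjustment at 0.05. With 1 residual degree of freedom, the spread comes from the controls and is taken to hold for *Angpt1*ΔNC too. All 10 members passed the filter on low counts in all 4 classes. TMM scaling moved the median gene by 0.17 on the log2 scale in endothelial, 0.10 in epithelial and 0.20 in mural cells and by 0.005 in stromal cells, so the fold changes below are relative to that shift. Levels given beside them are summed UMIs per 10000 before it. Fewer cells of a kind within a class and less RNA per cell cannot be told apart in such sums, and values within single labels are therefore given beside the calls.

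In mural cells, 6 of the 10 members fell in *Angpt1*ΔNC and none rose, where 7.23% of all genes tested fell and 9.12% rose. *Fos* changed most, at 27.4, 24.8 and 5.24 UMIs per 10000 (log2 fold change -2.12, SE 0.15, adjusted p = 5.5e-08). *Fosb* had 8.09, 9.10 and 3.86 (-0.96, SE 0.14, adjusted p = 0.00021), and *Jun* 8.53, 7.45 and 3.68 (-0.92, SE 0.15, adjusted p = 0.00034). Both lay below the 2 controls, which sat close together. *Atf3* was at 14.8, 14.2 and 6.81 (-0.90, adjusted p = 0.00022) and *Egr1* at 6.32, 7.32 and 3.22 (-0.89, adjusted p = 0.00055). *Btg2*, at 3.34, 2.87 and 1.69, changed least of those called (-0.68, adjusted p = 0.0063). *Junb* (29.5, 27.0 and 22.4, -0.14), *Zfp36* (2.29, 2.77 and 1.69, -0.39) and *Ier2* (7.29, 6.17 and 4.93, -0.25) did not pass the test. *Dusp1* alone lay above both controls (5.18, 4.41 and 5.54, 0.40, adjusted p = 0.059).

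The mural class changed in makeup between the genotypes. Cluster 19, whose controls have the highest *Fos* of the 3, held 387, 499 and 54 cells, cluster 20 held 461, 512 and 222, and cluster 21 held 188, 174 and 69. Of the 14322, 15708 and 877 *Fos* UMIs of the class, cluster 19 gave 12554, 14035 and 632. With equal numbers of cells drawn per label from each library, *Fos* (-1.34), *Fosb* (-0.68) and *Jun* (-0.54) remained called, *Junb* was called as well (-0.51), and *Atf3*, *Egr1* and *Btg2* were not, against 5.00% of genes lower in that fit. Taken one cluster at a time, *Fos* was lower in all 3, at -1.45 in cluster 19 (adjusted p = 0.00097), -1.0 in cluster 20 (adjusted p = 0.0055) and -2.05 in cluster 21 (adjusted p = 5.1e-16). It was the one member called in each. In cluster 19, 3 members were called lower, with *Junb* (22.9, 19.7 and 6.13 as a mean over cells, -1.48) and *Ier2* (7.06, 6.21 and 2.84, -0.98) beside *Fos*, against 0.473% of all genes. *Fosb* did not differ detectably there (12.4, 12.4 and 12.8). The 7 stromal markers summed to 9.66, 11.7 and 30.7 in the same cluster, and their part in these differences was not tested. In cluster 20 the 2 members called were *Fos* and *Fosb* (4.53, 4.38 and 1.61, -1.42), against 4.21%. In cluster 21 it was 6 members (*Fos*, *Fosb*, *Atf3*, *Junb*, *Zfp36* and *Ier2*), against 3.73%. *Atf3* was called in cluster 21 (13.5, 16.0 and 5.89, -1.23) and in neither of the others. These fits by label were added after the data had been seen. In male-typed mural cells (689, 849 and 110 cells) the fold changes of *Fos* (-3.95), *Egr1* (-1.93), *Atf3* (-1.83) and *Fosb* (-1.72) were larger, and that of *Dusp1* was 0.71. The numbers of cells per label were not made equal there, and the shares of all genes called in that fit were not counted. Median mitochondrial share in the class was 4.00%, 4.99% and 5.63%, and the summed stress genes were at 68.5, 63.1 and 50.5 UMIs per 10000. The part of either was not tested.

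**Figure D4:**
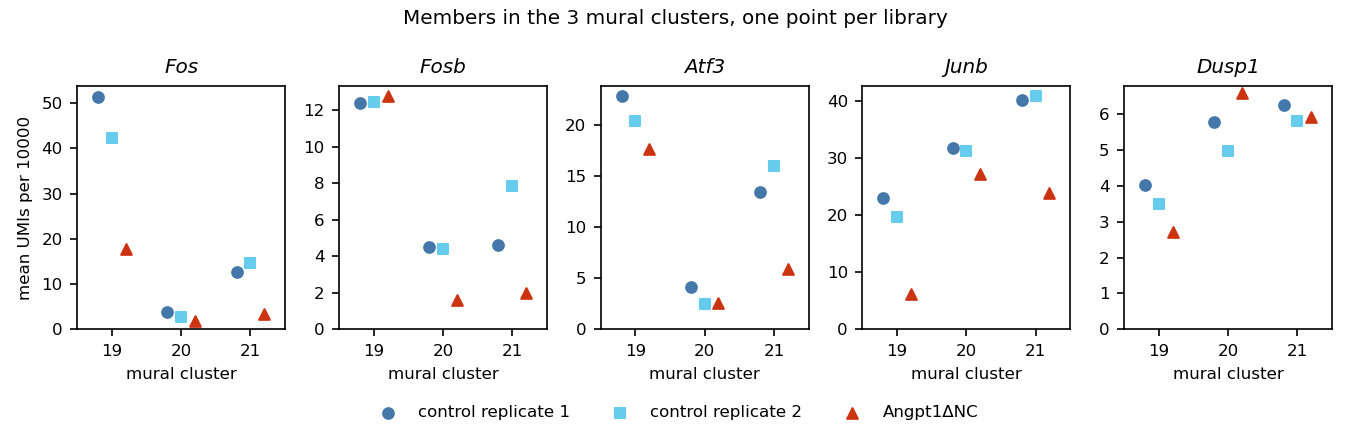
Mean level, in UMIs per 10000 UMIs of a cell, of 5 members in the 3 mural clusters, with 1 point per library. *Fos* in *Angpt1*ΔNC lies below both controls in every cluster, *Fosb* in clusters 20 and 21, and *Junb* in all 3, in proportion most in cluster 19, while *Dusp1* lies above both controls in cluster 20.

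In epithelial cells, which Wnt1-Cre does not target, 5 members fell and none rose in *Angpt1*ΔNC, against 2.91% of all genes lower and 2.81% higher. *Fos* was at 3.26, 2.41 and 0.885 UMIs per 10000 (log2 fold change -1.57, SE 0.20, adjusted p = 0.0059). *Dusp1* was at 4.61, 3.72 and 2.14 (-0.86, adjusted p = 0.031), *Atf3* at 4.16, 3.46 and 2.07 (-0.77, adjusted p = 0.038), *Fosb* at 1.84, 1.87 and 1.04 (-0.73, adjusted p = 0.038) and *Ier2* at 2.52, 2.20 and 1.38 (-0.67, adjusted p = 0.047). *Jun* (12.7, 11.5 and 7.44, -0.59), *Junb* (7.70, 7.11 and 4.86, -0.50), *Egr1* (0.628, 0.655 and 0.386, -0.63) and *Zfp36* (1.52, 1.26 and 0.968, -0.42) also lay below both controls without passing the test, and *Btg2* (2.85, 1.56 and 2.01, -0.01) lay between them. The summed stress genes were at 48.4, 47.5 and 29.7 in the same cells, and their part in these differences was not tested.

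The epithelial class shifted from cluster 5 (575, 505 and 270 cells) to cluster 4 (414, 507 and 641 cells), and *Fos* is lower in cluster 4 in the controls. In cluster 5 alone *Fos* was at 4.11, 2.64 and 1.28 as a mean over cells and remained called (-1.59, adjusted p = 0.020), the only member called, against 0.968% of genes lower. In cluster 4 alone *Fos* was not called (-0.43, adjusted p = 0.096), while *Dusp1* (4.00, 3.15 and 1.45, -1.13), *Jun* (15.5, 15.1 and 8.59, -0.68) and *Ier2* (2.35, 2.48 and 1.51, -0.53) fell, with 5.76% of genes lower. *Btg2* lay above both controls there (1.33, 0.838 and 1.47, 0.62), and the share of all genes higher in that fit was not counted. *Atf3* turned direction in cluster 4 (0.42, adjusted p = 0.082). With equal numbers of cells per label *Fosb* was not called (-0.43, adjusted p = 0.20) and *Jun* was (-0.74, adjusted p = 0.016), with 4.21% of genes lower. In male-typed cells *Fos* (-1.29) and *Fosb* (-0.95) were called, with 1.83% of genes lower, and *Atf3* (-0.66), *Dusp1* (-0.73) and *Ier2* (-0.63) missed the threshold with folds close to those above.

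In stromal cells 1 of the 10 members passed the test, against 5.52% of genes lower and 3.46% higher. *Junb* was at 15.3, 13.5 and 7.80 UMIs per 10000 (log2 fold change -0.88, SE 0.15, adjusted p = 0.010), well below 2 close controls. It remained called without TM6 (-0.81), in male-typed cells (-0.63) and with equal numbers of cells per label (-0.70). *Fos* was at 8.42, 5.43 and 6.39, between controls that themselves differed by more than *Angpt1*ΔNC did from either, so no change was detectable (-0.10, SE 0.22). *Egr1* was at 2.27, 2.30 and 2.30. *Fosb* (10.2, 10.7 and 8.37, -0.32), *Ier2* (3.74, 2.95 and 2.49, -0.42), *Zfp36* (1.27, 1.25 and 1.02, -0.30), *Btg2* (1.54, 1.11 and 0.946, -0.47), *Dusp1* (3.07, 2.37 and 2.1, -0.37) and *Atf3* (3.75, 3.11 and 3.07, -0.15) lay below both controls and did not pass. *Jun* (5.52, 3.87 and 4.25, -0.13) lay between them. The stromal class also changed in makeup, since TM7 and TM8 together held 44.9%, 40.6% and 16.9% of its cells. The sign for *Fos* turned in male-typed cells (0.51, adjusted p = 0.069) and without TM6 (0.18, adjusted p = 0.62).

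Endothelial cells as a class went the other way, with 4 members higher in *Angpt1*ΔNC and none lower, against 8.12% of genes higher and 4.82% lower. *Zfp36* was at 3.81, 3.34 and 5.41 UMIs per 10000 (log2 fold change 0.77, SE 0.15, adjusted p = 0.00042), *Egr1* at 1.49, 1.08 and 1.97 (0.79, adjusted p = 0.0011), *Btg2* at 2.46, 1.40 and 3.08 (0.85, adjusted p = 0.0016) and *Atf3* at 3.40, 2.16 and 4.20 (0.77, adjusted p = 0.0022). For *Btg2* and *Atf3* the controls were themselves far apart. *Fos* (7.05, 3.78 and 6.45, 0.43), *Ier2* (6.47, 4.91 and 6.28, 0.31) and *Dusp1* (8.05, 7.53 and 7.94, 0.20) lay between the controls, *Fosb* (1.28, 1.07 and 1.36, 0.38) above, and *Jun* (7.30, 6.52 and 5.41, -0.18) and *Junb* (27.3, 25.4 and 23.7, 0.01) below them before scaling.

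*Zfp36* was called under every alternative with a test. With DESeq2 it was the only member called (0.77, adjusted p = 0.022), against 2.03% of genes higher, and the same was true of EC2 to EC4 alone (0.86, adjusted p = 0.0040), against 6.39%. There *Egr1* was at 0.72 (adjusted p = 0.054), *Btg2* at 0.73 (adjusted p = 0.11) and *Atf3* at 0.60 (adjusted p = 0.17). In male-typed endothelial cells (220, 258 and 66 cells) *Egr1* missed the threshold (0.54, adjusted p = 0.057), and *Dusp1* was at 0.45 (adjusted p = 0.045). The share of all genes higher in that fit was not counted. By label, *Zfp36* was at 6.97, 5.48 and 11.1 in EC2, 2.01, 2.38 and 4.31 in EC4 and 4.04, 3.73 and 3.83 in EC3, so it lay above both controls in EC2 and EC4 and between them in EC3. The 12 LEC cells of *Angpt1*ΔNC had a summed member level of 120 UMIs per 10000, against 17.0 and 38.2 in 3 and 1 control cells. The summed stress genes were at 53.8, 46.4 and 32.7 in the endothelial class. The 7 stromal markers summed to 0.649, 0.928 and 3.75 there, and in EC4 to 0.833, 1.39 and 7.79, and the part of either in the members' values was not tested.

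**Figure D5:**
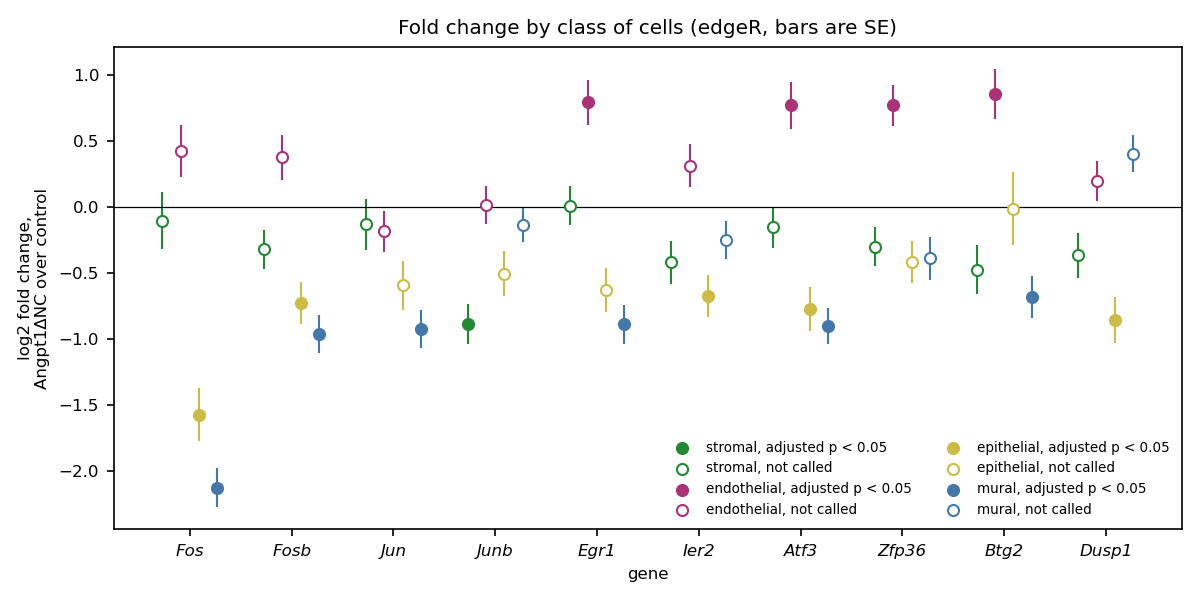
Log2 fold change of each member in *Angpt1*ΔNC over control in the 4 classes, from edgeR on summed UMIs, with SE as bars and filled symbols for adjusted p under 0.05. *Fos* lies at -2.12 in mural and -1.57 in epithelial cells and near 0 in stromal cells, and the filled endothelial points of *Egr1*, *Atf3*, *Zfp36* and *Btg2* lie at 0.77 to 0.85.

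The differences between classes were tested themselves, as class by genotype terms in 1 fit with the library as a block. Mural minus stromal, *Fos* differed by -2.12 on the log2 scale (SE 0.22, adjusted p = 0.00013), and *Egr1* (-0.97), *Jun* (-0.87), *Atf3* (-0.82) and *Fosb* (-0.71) were also called lower, against 1.37% of genes. *Dusp1* (0.70, adjusted p = 0.015) and *Junb* (0.68, adjusted p = 0.0044) were called higher, against 2.54%. In these class sums, relative to stromal cells, the 10 members did not all shift in the same direction. The term for *Junb* is positive because its sum fell more in stromal than in mural cells, in which it also lay below both controls. None of these terms was fitted with equal numbers of cells per label. As a mean over cells *Junb* was at 22.9, 19.7 and 6.13 in cluster 19, 31.8, 31.3 and 27.2 in cluster 20 and 40.3, 40.9 and 23.9 in cluster 21. For *Dusp1* the mural fold change was 0.16 with equal cells, and -0.76, 0.32 and 0.09 in clusters 19, 20 and 21 alone. The part of the shift in makeup in these terms was not tested. Endothelial minus stromal, 5 were called higher, against 2.66% of genes: *Btg2* (1.34), *Zfp36* (1.05), *Atf3* (0.92), *Junb* (0.88) and *Ier2* (0.72). Epithelial minus stromal, *Fos* alone was called (-1.51, adjusted p = 0.0012), against 1.98% of genes lower.

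Counted over labels, in which a shift in makeup between labels plays no part, *Angpt1*ΔNC lay below both controls in 165 of the 299 pairs of a member and a label with a mean of at least 0.5 UMIs per 10000 (55.2%), against 44.1% of such pairs over all genes. It lay above both in 62 (20.7%), against 35.1%. *Junb* was below both controls in 25 of 32 labels, *Ier2* in 24 and *Jun* in 21, and *Fos* and *Atf3* in 18. *Zfp36* was below in 13 and above in 10, and *Fosb* below in 14 and above in 13. A single pair of controls already differs in these genes. Control replicate 1 lay above control replicate 2 in 212 of the 299 pairs (70.9%), against 55.4% over all genes, and for *Fos* the median label was 1.53 times higher in control replicate 1. The median label of *Angpt1*ΔNC was at 0.54 of the control mean for *Fos*, 0.67 for *Junb* and for *Jun*, 0.75 for *Ier2*, 0.98 for *Zfp36* and 0.99 for *Fosb*.

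Other early response genes, from a list of 45 of which 44 were tested in each class, moved mostly in the same direction as the members. In mural cells 19 fell (43.2%, against 7.23% of all genes) and 5 rose (11.4%, against 9.12%). The share that rose was thus close to that of all genes. The median log2 change was -0.36 over the list and -0.05 over all genes tested. *Cyr61* (-2.43) and *Ctgf* (-1.22), which encode matricellular proteins, and *Klf2* (-1.86), a factor known for its response to flow, fell most by p, while the NF-kB regulator *Nfkbiz* (1.36), the nuclear receptor *Nr4a3* (0.88) and *Btg1* (0.66) rose. In epithelial cells 18 fell (40.9%, against 2.91% of all genes) and 1 rose (2.27%, against 2.81%), with a median of -0.51 against -0.01. *Plk2* (-2.21), *Cyr61* (-2.40) and *Plk3* (-1.75) led, and *Egr3* (1.32) was the one that rose. In stromal cells 12 fell (27.3%, against 5.52% of all genes) and none rose (against 3.46%), with a median of -0.39 against -0.01. *Socs3* (-1.41), a feedback inhibitor of cytokine signaling, and *Phlda1* (-1.05) led those that fell. *Nr4a1* (-0.89), *Nr4a2* (-0.91) and *Nr4a3* (-1.02), the 3 nuclear receptors of that family, were among them. In endothelial cells 19 rose (43.2%, against 8.12% of all genes) and 4 fell (9.09%, against 4.82%), with a median of 0.48 against -0.02. *Dusp2* (2.64), *Egr3* (2.22) and *Gadd45b* (1.19) led.

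Of 15 genes upstream of the set, which encode serum response factor, its partners, CREB and MAP kinases, none was called in stromal cells. In endothelial cells *Srf* (1.07), *Mkl2* (0.73), *Elk3* (0.52) and *Creb1* (0.71) rose (26.7% of the list, against 8.12% of all genes). In epithelial cells *Srf* rose (0.84), or 6.67% against 2.81%. In mural cells *Mapk3*, which encodes ERK1, fell (-0.99), or 6.67% against 7.23%, which is no more than over all genes. Of the 9 stress genes, 1 fell in stromal (*Dnajb1*, -0.75) and 1 in mural cells (*Hspa8*, -0.55). Each is 11.1% of the list, against 5.52% and 7.23% of all genes, so little can be read from them. In epithelial cells 2 fell (*Hspb1*, -1.02, and *Dnajb1*, -0.93), or 22.2% against 2.91%. In endothelial cells 4 fell (*Hspa1a*, -2.44, *Hspa1b*, -1.65, *Hspd1*, -0.60, and *Hspe1*, -0.52), or 44.4% against 4.82%. None rose in any class.

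Genes outside the set were ranked by how closely their levels over the 32 labels followed the mean pattern of the members, by the lowest Pearson correlation of log2 levels in the 3 libraries. The 10 most alike included *Sertad1* (0.79), *Ppp1r15a* (0.77), *Ccnl1*, *Csrnp1*, *Nr4a1*, *Gadd45g*, *Irf1*, *Rhob* and *Socs3* (0.67), and 6 of the 10 belong to the list of other early response genes. Among the members themselves *Fos* (0.85) and *Egr1* (0.83) lay closest to the common pattern, of which they are a part, and *Fosb* was farthest (0.56, 0.41 and 0.27). The labels of 1 library share its preparation, so these correlations are a description over 32 labels.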

How the data were processed

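Single cells were measured in 3 droplet libraries, and the authors deposited UMI counts of 31053 genes in each called cell, not normalized. Per the labels the counts came from Cell Ranger 2.1.1 and clustering from Seurat 3.1.3, on build mm10, and the matrix headers name a later Cell Ranger. The authors kept cells with at least 200 genes, at least 1000 UMIs and at most 10% mitochondrial UMIs, removed doublets and deposited a cluster label per kept cell. Those cells and labels were used as they are. The deposited integrated values were not used for levels.

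The 10 members and all gene lists were chosen with earlier results of these data known. Genes named are the members, listed genes called in a class (at most 10 per list with the smallest adjusted p), the 10 most alike genes and, for each member, the 3 labels with the highest and lowest control mean.

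A level is the mean over cells of a gene's UMIs per 10000. For tests between genotypes, UMI counts were summed per class and library and fitted with edgeR 4.0.16 (TMM, filterByExpr, quasi-likelihood F-test, Benjamini-Hochberg over all genes) in R 4.3.3. The fit was tested on simulated data. DESeq2 1.42.0, other size factors, no filter, equal numbers of cells per label, male-typed cells (at least 1 UMI from Y-linked genes, no *Xist*), each control left out (fold changes only) and, added later, single labels were alternatives. Shares were taken after thinning to 1000 UMIs, with exact Clopper-Pearson intervals (scipy 1.17.1), and correlations on ln(1 + UMIs per 10000). The most alike genes have at least 0.5 UMIs per 10000 in some label, with 0.1 added before log2. A most alike gene is not reported here. Promoter windows are RefSeq's for GRCm38.p6.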

Additional observations from a re-analysis of the deposited data

Results flagged for a closer look

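The fold changes of 13 pairs of a member and a class differed from that of stromal cells in the test of the class by genotype term (edgeR, library as a block), and all values below are differences of log2 fold changes, class minus stromal. In mural cells they were -2.12 for *Fos*, -0.97 for *Egr1*, -0.87 for *Jun*, -0.82 for *Atf3*, -0.71 for *Fosb*, 0.70 for *Dusp1* and 0.68 for *Junb*. In endothelial cells they were 1.34 for *Btg2*, 1.05 for *Zfp36*, 0.92 for *Atf3*, 0.88 for *Junb* and 0.72 for *Ier2*. In epithelial cells the difference was -1.51 for *Fos*. None of these terms was fitted with equal numbers of cells per label, and the part of shifts in makeup within a class was not tested. Adjusted p ranged from 0.00013 to 0.029, and each rests on 1 *Angpt1*ΔNC library.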

How the results depend on the processing

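No paired analysis was possible because the *Angpt1*ΔNC group has 1 library. With 1 residual degree of freedom, a single odd *Angpt1*ΔNC pool cannot be told apart from an effect of genotype, and members with few UMIs could be compared least precisely. The cause of the changes below was not tested. Of the 10 members, 2 were called lower in stromal cells with no filter (7.19% of all genes) and 2 with equal numbers of cells per label (5.41%), 1 higher in endothelial cells with DESeq2 (2.03%) and 1 without SC and LEC (6.39%). In epithelial cells 2 were lower in male-typed cells (1.83%) and 1 in cluster 5 alone (0.968%), and in mural cells 3 in cluster 19 alone (0.473%) and 2 in cluster 20 alone (4.21%). The test between endothelial and stromal cells called 8 higher with RLE size factors (3.51%) and 9 with no filter (3.05%), and that between epithelial and stromal cells 5 lower with no filter (2.82%). From summed UMIs the members' control level was 109 UMIs per 10000 in mural and 50.3 in all kept cells. As a mean over cells, the level in the controls one at a time ran between 50.8 and 60.5 in stromal, 55.3 and 73.4 in endothelial, 35.2 and 40.9 in epithelial, 98.0 and 105 in mural and 53.0 and 62.1 in all kept cells. Among log2 fold changes, the sign turned in stromal cells in male-typed cells for *Fos* (0.51), *Fosb* (0.0919), *Jun* (0.10) and *Atf3* (0.28), without TM6 for *Fos* (0.18) and *Jun* (0.0074), and with equal cells for *Egr1* (-0.0267). In endothelial cells it turned for *Junb* with equal cells (-0.11), in male-typed cells (-0.0442) and without SC and LEC (-0.0882), and for *Fosb* without SC and LEC (-0.12). In epithelial cells it turned for *Btg2* with equal cells (0.22), in male-typed cells (0.0894), in cluster 4 (0.62) and in cluster 5 (0.10), and in cluster 4 for *Atf3* (0.42) and *Zfp36* (0.0364). In mural cells it turned for *Junb* in male-typed cells (0.0067), in cluster 20 for *Ier2* (0.0839) and *Zfp36* (0.0238), and in cluster 19 for *Dusp1* (-0.76). Without control replicate 1 it turned for *Fos* (0.20), *Jun* (0.10) and *Egr1* (-0.0358) in stromal and *Btg2* (0.42) in epithelial cells, and without control replicate 2 for *Junb* in endothelial cells (-0.0199), none of which was called with all 3 libraries. Fits by label and without SC and LEC or TM6 were chosen after seeing the data.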

Other observations

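Cells that the authors called but did not keep also carried these transcripts. Among called cells over 10% mitochondrial UMIs that met the other filters (570, 683 and 993 cells), the summed level of the 10 members was 65.5, 49.0 and 61.2 UMIs per 10000, against 62.1, 53.0 and 42.6 in kept cells. The members split in these cells. *Atf3* was at 13.7, 8.64 and 14.5 against 6.33, 5.10 and 4.17 in kept cells, *Egr1* at 7.04, 5.74 and 5.74 against 2.43, 2.42 and 2.24, and *Fosb* at 9.79, 9.28 and 9.65 against 6.74, 7.09 and 5.14. *Junb* was lower, at 10.0, 8.25 and 7.57 against 17.6, 16.1 and 11.7, as was *Dusp1*, at 1.73, 1.33 and 1.81 against 3.96, 3.09 and 3.64. The *Angpt1*ΔNC library had the most such cells, with 993 of 8614 called cells. Within the kept cells, those with 5% to 10% mitochondrial UMIs had a summed level of 64.7, 58.5 and 43.9, against 61.7, 50.8 and 41.7 in those with less, so *Angpt1*ΔNC was below both controls in each range.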
